A study of Mus musculus with 8 samples.

Results

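The genes examined here are 49 enzymes and carriers of the urea cycle and of amino acid catabolism, followed through the livers of mice on a high fat diet. They were taken by name, as a list that runs from the enzymes that fix ammonia, through the transaminases, to the degradation of tyrosine, tryptophan, histidine, serine, glycine, cysteine, proline, lysine and the branched chain amino acids. All 49 matched exactly 1 of the 45706 identifiers in the deposited counts, and all 49 passed the filter on low counts that left 15491 genes for testing. The rule that chose them names genes and uses no threshold on a measured value.

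The liver disposes of dietary and endogenous amino acids by moving their nitrogen onto glutamate and aspartate and then into urea, while the carbon skeletons feed gluconeogenesis, ketogenesis or the citric acid cycle. Most of these enzymes are made in hepatocytes, many of them in the periportal zone near the incoming blood. Several of the genes, *Cps1*, *Tat* and *Sds* among them, are textbook targets of glucagon, through cyclic AMP, and of glucocorticoids, and their transcripts are known to increase with fasting or a protein-rich diet.

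Livers came from male C57BL/6J mice (strain written C56B6/J in the labels) that had received, by tail vein at 6 weeks of age, an AAV2/8 vector in which the CBA promoter drives GFP and a mirE/shRNA. In the 4 livers labelled *Srsf10-kd* (genotype Srsf10KD) the hairpin is directed at *Srsf10*, a splicing factor of the SR family, and in the 4 labelled *Ctrl* (genotype WT) it is a control hairpin, so all 8 animals carried a vector. All 8 were given a diet with 60% of calories from fat, begun 4 weeks after the injection and kept for 12 weeks. CBA is a broadly active promoter and not specific to hepatocytes. The question put by the design is whether the *Srsf10* hairpin changes hepatic gene expression under this diet, and the samples were poly(A) RNA libraries with 50456404 to 59697241 counts in genes per liver.

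*Srsf10* itself was at 31.6, 33.7, 35.3 and 30.9 CPM (read counts relative to the library total after TMM scaling) in Ctrl 1 to 4 and at 34.2, 33.99, 40.99 and 36.5 CPM in Srsf10-kd 1 to 4. The targeted transcript thus showed no decrease in these gene counts as labelled (log2 fold change 0.15 (SE 0.099, edgeR adjusted p = 0.378, exact permutation p = 0.114)), and every direction below compares libraries as labelled. The authors reported lower SRSF10 protein by western blot and lower RNA by qPCR in livers given this hairpin. Fold changes are given throughout as labelled *Srsf10-kd* over *Ctrl* on the log2 scale. Hepatocyte markers summed to 83337 to 109500 CPM in *Ctrl* and 100290 to 116920 CPM in *Srsf10-kd*. The 6 cholangiocyte markers were all higher in the livers labelled *Srsf10-kd*, with sums of 46.9 to 69.2 CPM against 31.7 to 39.3 CPM, none of them at 0, edgeR called 0 of the 6, and the 8 pericentral hepatocyte markers summed to 11553 to 12611 CPM against 13011 to 14419 CPM. Pancreatic transcripts stood out in Srsf10-kd 2, where the 5 kidney and pancreas markers summed to 118 CPM against 3.30 to 9.78 CPM in the 7 other livers, with *Prss1* at 0 in all 8. Srsf10-kd 3 lay at 67.4 on the first principal component (44.8% of the variance), the other 7 between -41.8 and 11.5, and Ctrl 4 lay at -41.8. The trend of expression on transcript length also differed, its slope being -0.19 in Srsf10-kd 3 and 0.137 in Ctrl 4.

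Promoter sequence is shown for 6 members that reached at least 1.5 times the median of the other 3 livers of their group (values below). They were *Got1*, *Tat*, *Hgd* and *Agxt* in Ctrl 4 and *Hal* and *Uroc1* in Srsf10-kd 2. *Tat* also reached it in Srsf10-kd 1 and Srsf10-kd 2. The sequences are the 250 bases before the RefSeq start on GRCm38.p6, written in the direction of transcription. *Got1* lies at chr19:43524606-43524855 on the minus strand. On the plus strand, *Tat* lies at chr8:109990186-109990435, *Hgd* at chr16:37579903-37580152, *Agxt* at chr1:93134990-93135239, *Hal* at chr10:93488518-93488767 and *Uroc1* at chr6:90333039-90333288. Capitals mark every occurrence, on either strand, of 4 short motifs, which do not overlap each other here. The core of the cyclic AMP response element was searched as TGACG. For the glucocorticoid receptor the letters were TGTTCT. The TATA box was taken as TATAAA. The CAAT box was taken as CCAAT.
Got1: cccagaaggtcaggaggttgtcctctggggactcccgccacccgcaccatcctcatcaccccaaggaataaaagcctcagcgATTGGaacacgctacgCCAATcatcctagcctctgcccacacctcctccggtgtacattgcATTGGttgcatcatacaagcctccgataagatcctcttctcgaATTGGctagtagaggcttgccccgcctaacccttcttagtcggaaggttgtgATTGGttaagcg
Tat: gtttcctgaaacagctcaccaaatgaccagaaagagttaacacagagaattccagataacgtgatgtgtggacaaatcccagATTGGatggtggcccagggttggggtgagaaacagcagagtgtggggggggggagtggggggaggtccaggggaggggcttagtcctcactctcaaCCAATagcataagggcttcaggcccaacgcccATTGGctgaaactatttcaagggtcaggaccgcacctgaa
Hgd: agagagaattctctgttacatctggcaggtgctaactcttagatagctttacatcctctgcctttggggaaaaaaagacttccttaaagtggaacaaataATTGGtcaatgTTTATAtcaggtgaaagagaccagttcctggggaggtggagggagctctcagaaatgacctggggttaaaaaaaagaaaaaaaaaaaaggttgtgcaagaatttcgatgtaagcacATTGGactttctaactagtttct
Agxt: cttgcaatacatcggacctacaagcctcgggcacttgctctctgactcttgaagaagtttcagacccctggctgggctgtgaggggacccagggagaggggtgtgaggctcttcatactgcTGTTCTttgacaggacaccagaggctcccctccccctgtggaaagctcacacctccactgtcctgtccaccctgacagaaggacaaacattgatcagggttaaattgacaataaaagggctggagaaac
Hal: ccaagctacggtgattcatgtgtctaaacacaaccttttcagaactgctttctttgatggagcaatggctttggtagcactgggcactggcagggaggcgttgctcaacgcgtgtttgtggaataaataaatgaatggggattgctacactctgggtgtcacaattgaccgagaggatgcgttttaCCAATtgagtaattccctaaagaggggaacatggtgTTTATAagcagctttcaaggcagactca
Uroc1: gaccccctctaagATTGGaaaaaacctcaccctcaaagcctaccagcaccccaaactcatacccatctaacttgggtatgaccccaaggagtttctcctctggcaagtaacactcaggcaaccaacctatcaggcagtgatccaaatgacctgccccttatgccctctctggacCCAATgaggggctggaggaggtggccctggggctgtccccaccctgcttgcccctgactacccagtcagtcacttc
A match on the reverse strand appears in the line as its reverse complement. The *Got1* window held 5 matches and that of *Tat* 3, all of them CAAT boxes. *Hgd* held 3, *Hal* 2 and *Uroc1* 2, while *Agxt* held 1, a glucocorticoid receptor motif. RefSeq windows were matched for 38 of the 49 members, of which 6 (15.8%) held the cyclic AMP core, 4 (10.5%) the glucocorticoid receptor motif, 6 (15.8%) the TATA box and 16 (42.1%) the CAAT box. Among all 32851 windows of the same length, counted singly, the shares were 17.8%, 16.1%, 12.4% and 33.8% in the same order. A member was counted where any of its windows held the motif, so the member shares and the window shares are unlike measures. A match of these letters describes the sequence and is not a measured binding site.

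Expressed per kilobase of transcript (RPKM), the levels of the 49 members spanned from 1.98 to 1320.4 as means over the 8 livers. The 5 highest were *Hpd* (4-hydroxyphenylpyruvate dioxygenase, of tyrosine breakdown) at 1320.4 RPKM with a range of 1026 to 1883, *Arg1* (arginase) at 851, *Tdo2* (tryptophan dioxygenase) at 819, *Ass1* (argininosuccinate synthetase) at 791 and *Tat* (tyrosine aminotransferase) at 532. The 3 lowest were *Bcat2* (the mitochondrial branched chain transaminase) at 11.2 RPKM, *Sdsl* (a serine dehydratase-like enzyme) at 8.43 and *Acmsd* (a decarboxylase that diverts tryptophan carbon from NAD synthesis) at 1.98. In this order, 44 of the 48 neighbouring pairs lay within 1 SD of each other over the 8 livers. The exceptions were *Hpd* above *Arg1*, *Bckdhb* above *Gldc*, *Mccc1* above *Bcat2* and *Sdsl* above *Acmsd*.

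**Figure D1:**
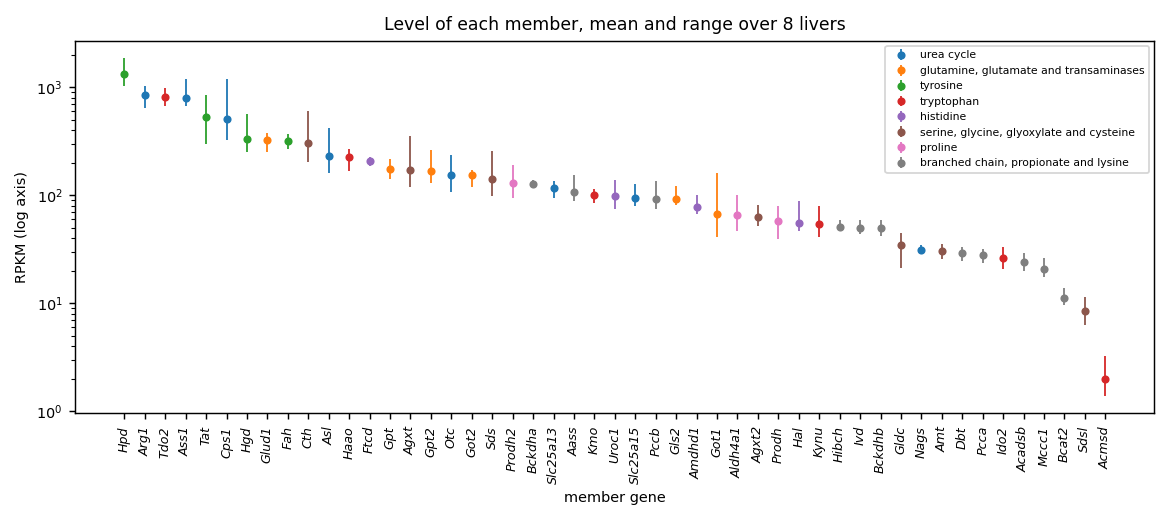
Level of each of the 49 members in RPKM on a log axis, ordered from high to low and coloured by role; points are means over the 8 livers and lines run from the lowest to the highest liver. *Hpd*, at a mean of 1320.4 RPKM, stands above the rest, and the lines of *Cps1*, *Got1*, *Agxt* and *Cth* reach far above their points.

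No member differed between the groups after adjustment over all 15491 genes. In edgeR's quasi-likelihood test 0 of 49 had an adjusted p under 0.05, the lowest being 0.162, where 0.071% of all genes tested (11 genes, all lower) did. At an unadjusted p under 0.05 there were 5 members (10.2%), 4 higher and 1 lower in the livers labelled *Srsf10-kd*, against 21.8% of all genes. DESeq2 also called 0 members, where it called 5.75% of all genes, and limma-voom with quality weights called 0, where it called 11.7%. Under an unadjusted 0.05, DESeq2 had 7 members (14.3%) against 23.6% of all genes, and limma-voom had 2 (4.08%) against 31.4%. The 2 groups of 4 livers did not overlap for 1 member (2.04%), *Bckdhb*, against 14.3% of all genes. Fold changes of the members were small, from -0.70 to 0.46 on the log2 scale, with a median absolute size of 0.142 against 0.237 over all genes tested. Of the 49, 30 (61.2%) were lower as labelled, at any p, where 48.7% of all genes were, and the median was -0.044 against 0.0126. In whole liver RNA, fewer cells that make a transcript and less of it per cell cannot be told apart.

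The direction count changed with the liver left out, most without Ctrl 4. Without Ctrl 4, 21 of 49 members were lower, the median was 0.0158, and 2 members had an unadjusted p under 0.05 against 14.7% of all genes. Without Srsf10-kd 2, 35 were lower and 3 had such a p (23.3% of all genes), and without Srsf10-kd 3 it was 32 and 1 (16.8% of all genes). Leaving out Srsf10-kd 1 or Srsf10-kd 4 gave 25 and 26 lower members, and leaving out Ctrl 1, 2 or 3 gave 28 each.

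**Figure D2:**
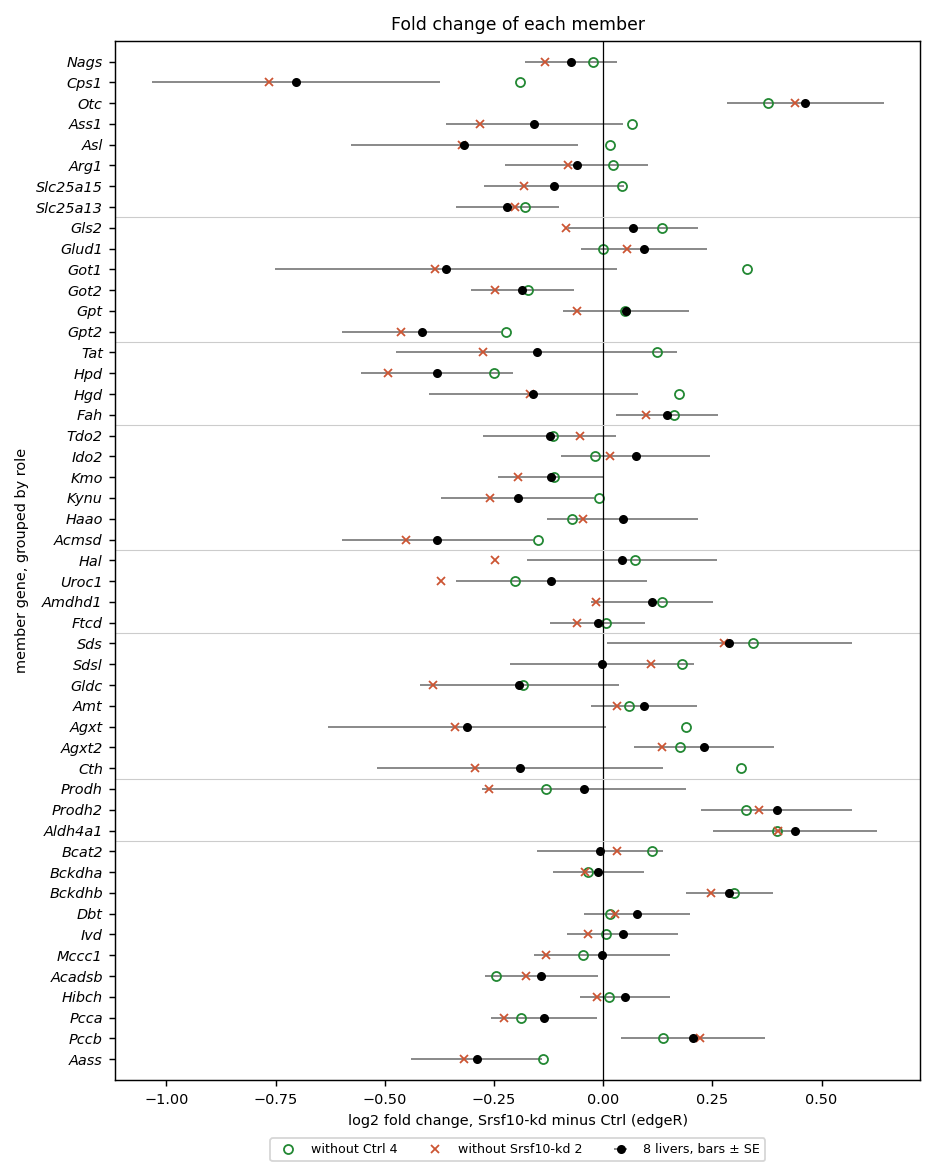
Log2 fold change of each member (livers labelled Srsf10-kd minus Ctrl), grouped by role; black points with bars are the edgeR estimate ± SE over 8 livers, open circles leave out Ctrl 4 and crosses leave out Srsf10-kd 2. All black points lie between -0.70 and 0.46, and the open circles of *Cps1*, *Got1*, *Agxt* and *Cth* sit well to the right of their black points.

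The widest differences within the module lay between single livers. Ctrl 4 gave the highest value of the 8 livers for 18 members (36.7%, against 21.2% of all genes), and Srsf10-kd 2 for 16 (32.7%, against 8.07%). Srsf10-kd 3 was highest for 8 (16.3%, against 29.8%), and Srsf10-kd 1 and Srsf10-kd 4 for none. In Ctrl 4, 13 members (26.5%) reached at least 1.5 times the median of the 3 other *Ctrl* livers, against 5.27% of all genes. In Srsf10-kd 2, 6 members (12.2%) stood as far above the 3 others of their group against 5.43% of all genes, and in Srsf10-kd 3 it was 6 (12.2%) against 14%. A single liver far from the other 3 of its group (Dixon's test, 95% level) was found in 10 of the 98 groups of members, or 10.2%, where 8.13% of the groups of all genes held one. The 49 transcripts together took 3.08% of all counts in Ctrl 4 and 1.99% to 2.44% in the 7 other livers. Within *Ctrl*, the median SD of the members' log2 CPM was 0.228 with Ctrl 4 and 0.137 without it, where all genes tested gave 0.221 and 0.195. Within *Srsf10-kd* it was 0.208 against 0.244.

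Other transcripts of the fed and fasted liver also set these livers apart. The 10 listed lipogenic genes summed to 961 CPM in Ctrl 4, where Ctrl 1 to 3 gave 1644 to 2775 CPM, and to 4881 CPM in Srsf10-kd 2 against 1897 to 2778 CPM in the rest of its group. The 9 listed fasting-induced genes summed to 20876 CPM in Ctrl 4, the highest of the 8, with 12420 to 17592 CPM in Ctrl 1 to 3. They summed to 7744 CPM in Srsf10-kd 3, the lowest. Srsf10-kd 2 was next, at 10672 CPM and below all 4 *Ctrl* livers, with 16613 and 16408 CPM in Srsf10-kd 1 and 4. The 6 periportal hepatocyte markers outside the 49 also had their highest sum in Ctrl 4, at 5257 CPM with 3650 to 4593 CPM in Ctrl 1 to 3, and their lowest in Srsf10-kd 3, at 3091 CPM with 4081 to 4430 CPM in the rest of its group. The part of these 3 lists in the members' values was not tested.

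**Figure D3:**
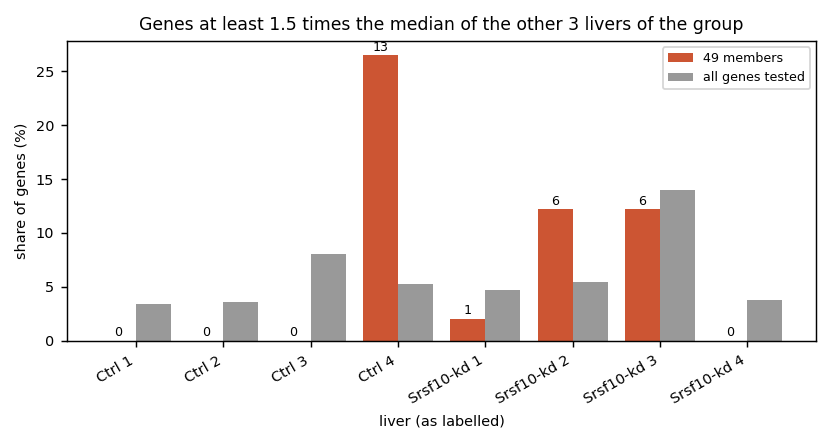
Share of the 49 members (red, number above the bar) and of all 15491 genes tested (grey) whose CPM in a liver was at least 1.5 times the median of the other 3 livers of its group, in percent. Ctrl 4 has 13 members (26.5%) against 5.27% of all genes; Ctrl 1, Ctrl 2, Ctrl 3 and Srsf10-kd 4 have none.

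**Figure D4:**
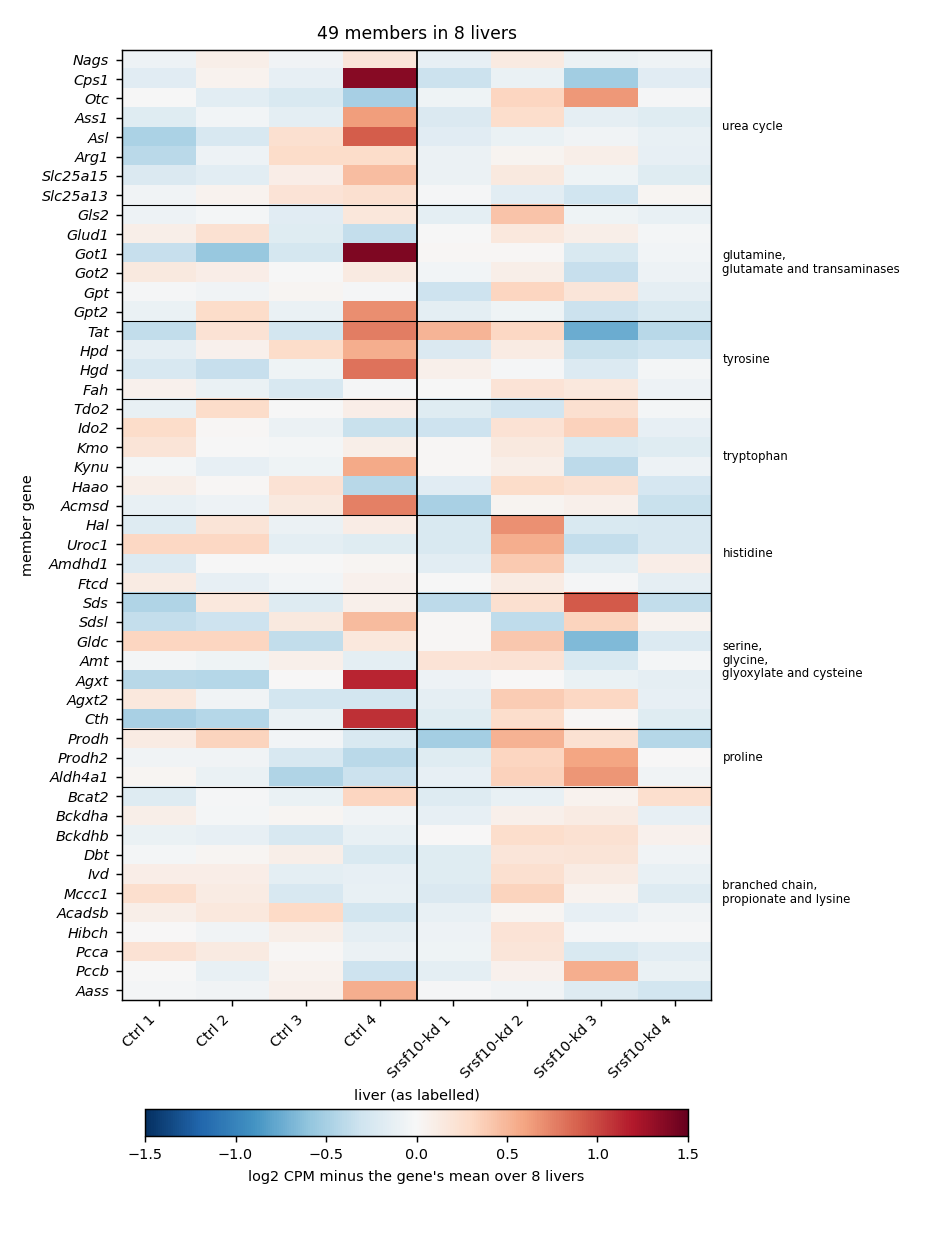
Each member (rows, grouped by role) in each of the 8 livers (columns), as log2 CPM minus the gene's mean over the 8 livers; red is above and blue below the mean, and the colour scale ends at 1.5 either way. The column of Ctrl 4 holds the darkest red cells, for *Cps1* and *Got1*, next to blue for *Otc*.

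The urea cycle itself begins in the mitochondrion. *Nags* makes N-acetylglutamate, the obligate activator of the first step, and its transcript was at 59.3, 66.5, 60.1 and 70.9 CPM in Ctrl 1 to 4 and at 57.5, 68.3, 58.7 and 59.6 CPM in Srsf10-kd 1 to 4. The 2 groups covered nearly the same range, and the log2 fold change was -0.073 (SE 0.10, edgeR adjusted p = 0.683, exact permutation p = 0.371). Of the 75-base stretches of *Nags*, 12.5% are shared with *Gm11586* on the other strand, and since the counting by strand is not given, reads of the pair may be mixed.

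*Cps1* (chr1:67123026-67231259, plus strand), carbamoyl phosphate synthetase, commits ammonia to the cycle. It was at 2286, 2683, 2361 and 6627 CPM in Ctrl 1 to 4 and at 2065, 2412, 1792 and 2304 CPM in Srsf10-kd 1 to 4. Ctrl 4 was 2.81 times the median of the other 3 *Ctrl* livers, and the remaining 7 livers lay between 1792 and 2683 CPM with the groups overlapping. The log2 fold change was the most negative of the module, -0.70 (SE 0.33, edgeR adjusted p = 0.243, exact permutation p = 0.143), and it was -0.19 without Ctrl 4 (edgeR adjusted p = 0.53).

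*Otc* (chrX:10252305-10321024, plus strand), the X-linked ornithine transcarbamylase that joins carbamoyl phosphate to ornithine, ran the other way. Its values were 452, 406, 387 and 321 CPM in Ctrl 1 to 4 and 432, 565, 713 and 447 CPM in Srsf10-kd 1 to 4. Ctrl 4, the highest liver for *Cps1*, was the lowest for *Otc*, and the highest *Otc* was in Srsf10-kd 3, the lowest liver for *Cps1*. Only Ctrl 1 exceeded any liver labelled *Srsf10-kd*, being above Srsf10-kd 1 and Srsf10-kd 4. The log2 fold change was the largest positive one of the module, 0.46 (SE 0.18, edgeR adjusted p = 0.191, exact permutation p = 0.0857), with an unadjusted p of 0.0279 in edgeR, and it was 0.30 without Srsf10-kd 3 and 0.23 in limma-voom (unadjusted p = 0.11).

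Of the cytosolic steps, *Ass1* and *Asl* were again highest in Ctrl 4. *Ass1*, which condenses citrulline with aspartate, was at 1162, 1278, 1192 and 2026 CPM in Ctrl 1 to 4 and 1133, 1580.2, 1197 and 1164 CPM in Srsf10-kd 1 to 4. Ctrl 4 and Srsf10-kd 2 each stood apart from the 3 other livers of their group, which all lay between 1133 and 1278 CPM. The log2 fold change was -0.16 (SE 0.20, edgeR adjusted p = 0.645, exact permutation p = 0.571), and 0.066 without Ctrl 4. About 32.6% of the 75-base stretches of *Ass1* are shared with *Gm5424*, so part of its reads may have been placed there.

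*Asl*, argininosuccinate lyase, was at 385, 454, 632 and 1004 CPM in Ctrl 1 to 4 and at 477, 501, 515 and 495 CPM in Srsf10-kd 1 to 4. All 4 livers labelled *Srsf10-kd* fell inside the *Ctrl* range, with a within-group SD of 0.046 log2 units against 0.61 in *Ctrl*. Its log2 fold change of -0.32 (SE 0.26, edgeR adjusted p = 0.463, exact permutation p = 0.657) became 0.016 without Ctrl 4. *Arg1*, the arginase that releases urea, was at 943, 1182, 1507 and 1500.1 CPM in Ctrl 1 to 4 and at 1172, 1279, 1325 and 1144 CPM in Srsf10-kd 1 to 4. Here Ctrl 3 and Ctrl 4 were alike and Ctrl 1 was lowest, and the log2 fold change was -0.061 (SE 0.16, edgeR adjusted p = 0.837, exact permutation p = 0.886).

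Of the carriers that serve the cycle, *Slc25a15*, the ornithine transporter, was at 274 to 439 CPM in *Ctrl* and 282 to 354 CPM in the livers labelled *Srsf10-kd*, highest in Ctrl 4. *Slc25a13*, the aspartate-glutamate carrier citrin, was at 348 to 425 CPM and 293 to 367 CPM. Summed over the 8 urea cycle members, the level was 4225 RPKM in Ctrl 4 and 2266 to 2868 RPKM in the 7 other livers. The group means were 2972 ± 864 RPKM in *Ctrl* and 2580.00 ± 207 RPKM in *Srsf10-kd* (SD, n = 4 each), a ratio of 0.868, or 1.01 without Ctrl 4. Of the 8 genes, 7 (87.5%) had a negative log2 fold change, *Otc* being the exception, and without Ctrl 4 *Ass1*, *Asl*, *Arg1* and *Slc25a15* were positive as well.

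**Figure D5:**
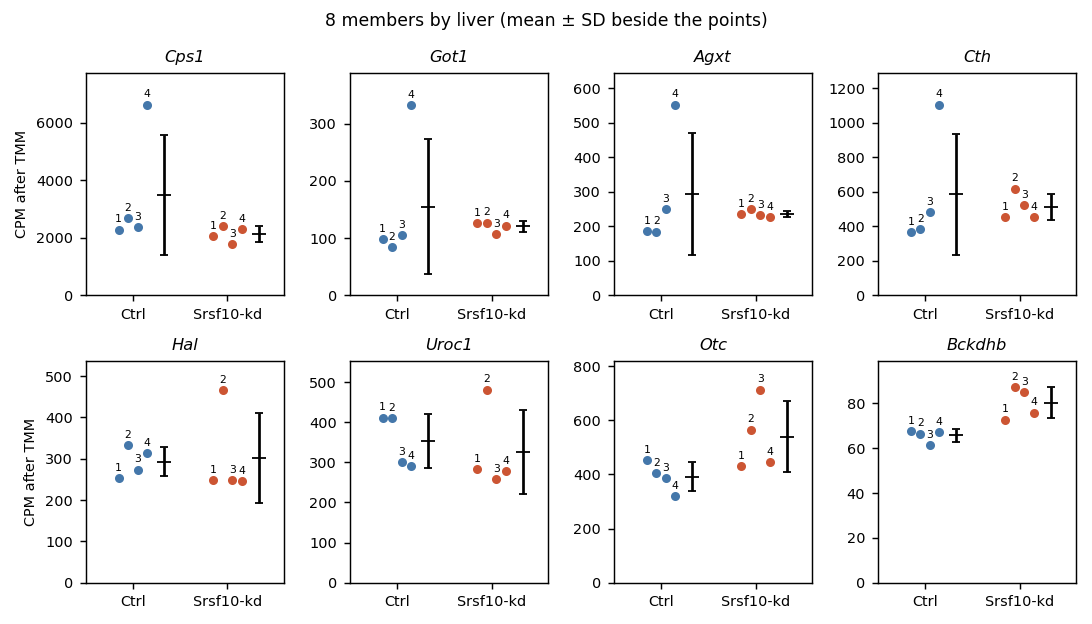
CPM of 8 members in each liver (numbers are the liver's number in its group), Ctrl in blue and Srsf10-kd in red, with the group mean ± SD (n = 4) in black. Ctrl 4 is far above the other *Ctrl* livers for *Cps1*, *Got1*, *Agxt* and *Cth*, Srsf10-kd 2 above its group for *Hal* and *Uroc1*, and the groups do not overlap for *Bckdhb*.

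Glutamine and glutamate supply nitrogen to the cycle. *Gls2*, the liver glutaminase of periportal hepatocytes, was at 223, 231, 210.3 and 265 CPM in Ctrl 1 to 4 and at 214, 317, 225 and 218 CPM in Srsf10-kd 1 to 4. Srsf10-kd 2 stood above the 7 others, and the log2 fold change of 0.068 (SE 0.15, edgeR adjusted p = 0.797, exact permutation p = 0.8) was -0.086 without that liver. *Glud1*, glutamate dehydrogenase, was at 859 to 1284 CPM in *Ctrl*, lowest in Ctrl 4, and at 1079 to 1232 CPM in *Srsf10-kd*. The 4 transaminases of this set, which pass amino groups between glutamate and aspartate or alanine, did not move as one. The cytosolic aspartate enzyme *Got1* was at 98.8, 84.4, 105 and 332 CPM in Ctrl 1 to 4, so that Ctrl 4 reached 3.35 times the median of the others, and at 127, 127, 107 and 122 CPM in Srsf10-kd 1 to 4. Its log2 fold change was -0.36 (SE 0.39) over 8 livers and 0.33 without Ctrl 4, when the 3 remaining *Ctrl* livers lay below all 4 labelled *Srsf10-kd* (edgeR adjusted p = 0.297). The mitochondrial partner *Got2* was at 387 to 431 CPM in *Ctrl*, with Ctrl 4 among the rest, and 305 to 412 CPM in *Srsf10-kd*; 19.3% of its stretches are shared with pseudogenes or antisense transcripts.

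The alanine transaminases also differed between isoforms. *Gpt* was at 302 to 318 CPM in the 4 *Ctrl* livers and 252 to 392 CPM in *Srsf10-kd*, the latter enclosing the former. *Gpt2*, the mitochondrial form, was at 549, 712, 550.1 and 954 CPM in Ctrl 1 to 4 and at 534, 566, 470.4 and 503 CPM in Srsf10-kd 1 to 4. It was the 1 member with a negative fold change and an unadjusted p under 0.05 (0.0461 in edgeR). Over the 8 livers the log2 fold change was -0.42 (SE 0.18, edgeR adjusted p = 0.222, exact permutation p = 0.114), and -0.22 without Ctrl 4.

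Tyrosine is broken down through *Tat*, *Hpd*, *Hgd* and *Fah*. *Tat*, whose transaminase opens the pathway, was at 924, 1383, 987 and 2029.96 CPM in Ctrl 1 to 4 and at 1694, 1486, 714 and 895 CPM in Srsf10-kd 1 to 4. Values ranged widely in both groups, with SDs of 0.52 and 0.59 log2 units, and the log2 fold change was -0.15 (SE 0.32, edgeR adjusted p = 0.79, exact permutation p = 0.629). *Hpd* was at 1648, 1900.1, 2195 and 2644 CPM in Ctrl 1 to 4 and at 1560.04, 1971, 1439.9 and 1473 CPM in Srsf10-kd 1 to 4. Srsf10-kd 2 lay among the *Ctrl* livers and the other 3 labelled *Srsf10-kd* below all of them. For *Hpd* the log2 fold change was -0.38 (SE 0.17, edgeR adjusted p = 0.236, exact permutation p = 0.0857). *Hgd*, homogentisate dioxygenase, was at 432 to 967 CPM in *Ctrl* and 474 to 579.8 CPM in *Srsf10-kd*, with Ctrl 4 at 2.08 times the median of the other *Ctrl* livers. *Fah*, the fumarylacetoacetate hydrolase that ends the pathway, did not share this: it was at 428 to 530.3 CPM and 481 to 584 CPM, with Ctrl 4 at 501 CPM.

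Tryptophan enters the kynurenine pathway through *Tdo2*, at 2586, 3369, 2769 and 2988 CPM in Ctrl 1 to 4 and 2449, 2291, 3282 and 2739 CPM in Srsf10-kd 1 to 4. The groups overlapped and Ctrl 4 was not set apart, and the log2 fold change was -0.12 (SE 0.15, edgeR adjusted p = 0.635, exact permutation p = 0.371). *Ido2*, a second dioxygenase of this step, was at 50.7 to 76.97 CPM and 51.7 to 80.9 CPM. Of the later enzymes, *Kmo* (kynurenine monooxygenase) ran at 358 to 419.6 CPM and 312 to 407 CPM. *Kynu* (kynureninase) was at 138 to 147 CPM in Ctrl 1 to 3, at 222 CPM in Ctrl 4 and at 114 to 159 CPM in *Srsf10-kd*. *Haao*, which makes the precursor of quinolinate, was at 230.2 to 358 CPM and 257 to 372 CPM, and here Ctrl 4 was the lowest of the 8 livers. *Acmsd* was at 4.82 to 8.79 CPM and 3.73 to 5.50 CPM, highest in Ctrl 4. Of the 6 genes, 4 had negative fold changes, none with an unadjusted p under 0.05.

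Transcripts of the histidine degradation enzymes were at their highest in Srsf10-kd 2. *Hal*, the histidase that removes ammonia from histidine, was at 254, 333, 274 and 313 CPM in Ctrl 1 to 4 and at 247, 466, 249 and 246 CPM in Srsf10-kd 1 to 4. The 3 other livers of the group agreed within 246 to 249 CPM, below all 4 *Ctrl* livers, so the log2 fold change of 0.043 (SE 0.22, edgeR adjusted p = 0.919, exact permutation p = 0.971) was -0.25 without Srsf10-kd 2 (edgeR adjusted p = 0.268). *Uroc1*, urocanase, the second enzyme, was at 412, 409.9, 299.6 and 291 CPM in Ctrl 1 to 4 and 283, 481, 257 and 279 CPM in Srsf10-kd 1 to 4. As for *Hal*, only Srsf10-kd 2 kept the groups from separating. *Amdhd1*, the third enzyme, was at 245 CPM in Srsf10-kd 2 and 162 to 201 CPM in the other 7 livers. *Ftcd*, the formiminotransferase that passes the last carbon to folate, was also highest there, though its 8 livers spanned no more than 364 to 438 CPM. Summed over the 4, the level was 555 RPKM in Srsf10-kd 2 and 397 to 459 RPKM elsewhere. Pancreatic *Ctrb1* (80.8 CPM) and *Cela2a* (36.8 CPM) were at their highest in the same liver, and their part in these values was not tested.

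In the serine, glycine, glyoxylate and cysteine set, *Agxt* and *Cth* followed Ctrl 4. *Agxt*, the peroxisomal alanine-glyoxylate aminotransferase, was at 187, 185, 251 and 553 CPM in Ctrl 1 to 4 and at 236, 249.6, 234 and 228 CPM in Srsf10-kd 1 to 4. The 4 livers labelled *Srsf10-kd* had an SD of 0.055 log2 units, against 0.74 in *Ctrl*, and the log2 fold change of -0.31 (SE 0.32, edgeR adjusted p = 0.557, exact permutation p = 0.886) was 0.19 without Ctrl 4. *Cth*, the cystathionine gamma-lyase that makes cysteine, was at 368, 385, 484 and 1107 CPM in Ctrl 1 to 4 and at 456, 619.6, 522 and 455 CPM in Srsf10-kd 1 to 4. Its log2 fold change was -0.19 (SE 0.33, edgeR adjusted p = 0.738, exact permutation p = 0.943), and 0.32 without Ctrl 4.

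The rest of that set differed from liver to liver. *Sds*, the serine dehydratase that feeds pyruvate into gluconeogenesis, was at 128 to 195 CPM in *Ctrl* and 134 to 331 CPM in *Srsf10-kd*, with Srsf10-kd 3 at 2.43 times the median of the rest of its group; 18.3% of its stretches lie in *Gm15690* and *Plbd2* on the other strand. *Sdsl* was at 9.53 to 16.9 CPM and 9.38 to 15.4 CPM, highest in Ctrl 4. The glycine cleavage enzymes *Gldc* and *Amt*, which act in 1 complex, were both highest in Srsf10-kd 2 and lowest in Srsf10-kd 3, *Gldc* at 97.8 to 158 CPM in *Ctrl* and 80.01 to 168 CPM in *Srsf10-kd*, *Amt* at 57.3 to 66.6 CPM and 53.8 to 73.6 CPM. *Agxt2*, the mitochondrial glyoxylate aminotransferase, was not raised with *Agxt*: it was at 113 to 153 CPM and 125 to 179 CPM, and Ctrl 4 was at 113 CPM.

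Proline and hydroxyproline oxidation gave a pair of the 5 members with an unadjusted p under 0.05. *Prodh*, proline dehydrogenase, was at 145, 168, 129.8 and 114 CPM in Ctrl 1 to 4 and at 93.7, 192, 156 and 98.9 CPM in Srsf10-kd 1 to 4. The livers labelled *Srsf10-kd* lay on both sides of the *Ctrl* livers, and the log2 fold change was -0.044 (SE 0.23, edgeR adjusted p = 0.922, exact permutation p = 0.743). *Prodh2*, its hydroxyproline counterpart, was at 226, 224, 197 and 176 CPM in Ctrl 1 to 4 and at 206, 293, 351 and 234 CPM in Srsf10-kd 1 to 4. Srsf10-kd 1 was the 1 liver of its group that did not exceed all of *Ctrl*; the log2 fold change was 0.40 (SE 0.17, edgeR adjusted p = 0.22, exact permutation p = 0.114) and the unadjusted edgeR p 0.0444. *Aldh4a1*, a later dehydrogenase of both routes, was at 220.3, 202, 159 and 173 CPM in Ctrl 1 to 4 and at 198, 276, 341 and 208 CPM in Srsf10-kd 1 to 4. Its log2 fold change was 0.44 (SE 0.19, edgeR adjusted p = 0.215, exact permutation p = 0.143), its unadjusted edgeR p 0.0414, and the groups overlapped at Srsf10-kd 1 and Srsf10-kd 4. The 2 genes had their highest values in Srsf10-kd 3, and without that liver their log2 fold changes were 0.25 and 0.27. In limma-voom with quality weights the log2 fold changes were 0.15 for *Prodh2* and 0.15 for *Aldh4a1*, with unadjusted p-values of 0.27 and 0.282. *Gm21969* shares 28.7% of the stretches of *Aldh4a1* on the same strand, so reads may be divided between them.

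The 11 branched chain, propionate and lysine genes had a summed level of 594 ± 8.98 RPKM in *Ctrl* and 594 ± 52.4 RPKM in *Srsf10-kd* (SD, n = 4 each). *Bckdhb* (chr9:83925145-84124240, plus strand), the E1-beta subunit of the branched chain keto acid dehydrogenase, was at 67.5, 66.4, 61.4 and 67.2 CPM in Ctrl 1 to 4 and at 72.7, 87.1, 85.03 and 75.9 CPM in Srsf10-kd 1 to 4. All 4 livers labelled *Srsf10-kd* exceeded all 4 *Ctrl* livers. The log2 fold change was 0.29 (SE 0.099, edgeR adjusted p = 0.162, exact permutation p = 0.0286), the exact p being the smallest that 4 against 4 livers can give. The unadjusted edgeR p was 0.0157, the adjusted p was 0.06 in DESeq2 and 0.0858 in limma-voom. After correction for transcript length, the log2 fold change was 0.098 and the groups overlapped. The cholangiocyte sums, which separate the groups in the same direction, are given above, and their part in this value was not tested.

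For *Bckdha* and *Dbt*, the other subunits of this complex among the 49, the groups overlapped. Like *Bckdhb*, each was higher in Srsf10-kd 2 and 3 than in Srsf10-kd 1 and 4. The difference in fold change between the subunits was not tested. *Bckdha*, the E1-alpha subunit, was at 258, 238, 249 and 234 CPM in Ctrl 1 to 4 and at 224, 257, 266 and 224 CPM in Srsf10-kd 1 to 4. *Bckdha* gave a log2 fold change of -0.012 (SE 0.10, edgeR adjusted p = 0.955, exact permutation p = 0.857); 43% of the stretches of *Bckdha* lie in *B3gnt8* on the other strand, so its reads may be mixed. *Dbt*, the E2 subunit, was at 82.1 to 102 CPM and 84.9 to 109.98 CPM, with a log2 fold change of 0.078 (SE 0.12). *Bcat2*, a minor transcript in liver, was at 20.2 to 29.1 CPM and 20.2 to 27.6 CPM.

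Farther along these routes, *Ivd* (isovaleryl-CoA dehydrogenase) was at 165 to 196 CPM in *Ctrl* and 161 to 216 CPM in *Srsf10-kd*. *Mccc1* (a subunit of methylcrotonyl-CoA carboxylase) was at 42.9 to 59.9 CPM and 43.5 to 63.9 CPM, and *Acadsb* (the short and branched chain acyl-CoA dehydrogenase) at 120.1 to 179 CPM and 134 to 149 CPM. *Hibch*, of valine breakdown, was at 85.6 to 99.4 CPM and 89.3 to 108 CPM. The 2 subunits of propionyl-CoA carboxylase parted in Srsf10-kd 3, which was the lowest liver for *Pcca* (61.1 CPM) and the highest for *Pccb* (312 CPM). *Pcca* was at 67.2 to 83.1 CPM in *Ctrl*, and *Pccb* at 173 to 221 CPM. *Aass*, which opens lysine degradation, was at 382 to 574 CPM and 325 to 389 CPM, highest in Ctrl 4, with a log2 fold change of -0.29 (SE 0.15).

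Read across the sets, the members that stood high in Ctrl 4 came from different pathways. The 13 at 1.5 times or more were *Cps1*, *Ass1*, *Asl* and *Slc25a15* of the urea cycle, *Got1* and *Gpt2* of the transaminases, *Tat* and *Hgd* of tyrosine, *Kynu* and *Acmsd* of tryptophan, and *Sdsl*, *Agxt* and *Cth*. The folds over the median of the other *Ctrl* livers were 3.35 for *Got1*, 2.96 for *Agxt*, 2.88 for *Cth*, 2.81 for *Cps1* and 2.21 for *Asl*. No histidine, proline or branched chain gene was among them, and *Otc* was at 0.793 times that median. In Srsf10-kd 2 the 6 were *Tat*, *Hal*, *Uroc1*, *Sds*, *Gldc* and *Prodh*, and in Srsf10-kd 3 they were *Otc*, *Sds*, *Prodh*, *Prodh2*, *Aldh4a1* and *Pccb*. *Sds* and *Prodh* were thus high in both livers, and *Tat* was also high in Srsf10-kd 1, at 1.89 times. Of the 49, 27 were at 1.5 times their group in no liver.

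Of 70 further enzymes of amino acid metabolism listed beside the 49, 65 passed the filter, and edgeR called 0 of them at an adjusted p under 0.05. There were 9 with an unadjusted p under 0.05, 3 higher and 6 lower (13.8%, against 21.8% of all genes), and 43 of the 65 were higher at any p. DESeq2 called 3 (*Ido1*, *Pcbd1* and *Slc1a2*), or 4.62% against 5.75% of all genes. By limma-voom 6 were called (*Afmid*, *Arg2*, *Dmgdh*, *Ido1*, *Pcbd1* and *Slc1a2*), or 9.23% against 11.7%. Groups did not overlap for 6, or 9.23% against 14.3%. All 3 shares lay below those of all genes.

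Among those 6, *Slc1a2*, the glutamate transporter of pericentral hepatocytes, was at 171, 248, 191 and 219 CPM in Ctrl 1 to 4 and at 147, 139, 142 and 129.5 CPM in Srsf10-kd 1 to 4. Its log2 fold change was -0.57 (SE 0.13, edgeR adjusted p = 0.113, DESeq2 adjusted p = 0.00372), and after correction for transcript length it was -0.22 (edgeR adjusted p = 0.49). *Pcbd1*, which regenerates the cofactor of phenylalanine hydroxylase, was at 156 to 187 CPM in *Ctrl* and 198 to 314 CPM in *Srsf10-kd*, and *Gcsh*, the H protein of glycine cleavage, at 74.1 to 88.6 CPM and 93.8 to 128 CPM. The length correction took the log2 fold change of *Pcbd1* from 0.50 to 0.16 and that of *Gcsh* from 0.36 to 0.15. The reverse order held for *Dmgdh*, dimethylglycine dehydrogenase, at 335 to 462 CPM against 463 to 532 CPM in *Ctrl*. So it did for *Hykk*, hydroxylysine kinase, at 64.9 to 117 CPM against 131 to 172 CPM, and *Aldh9a1* at 224 to 304 CPM against 316 to 371 CPM. None of these passed the edgeR threshold.

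Amino acid transport was covered by 13 listed carriers, *Slc25a44* of the mitochondrion among them. Of these, 11 were lower at any p (84.6%, against 48.7% of all genes), and none was called by edgeR. Groups did not overlap for 4 (30.8%, against 14.3% of all genes). The system A transporter *Slc38a4* was at 1007 to 1367 CPM in *Ctrl* and 789 to 1003 CPM in *Srsf10-kd*. *Slc7a2*, which carries the cationic amino acids arginine, lysine and ornithine, was at 593, 862, 708 and 1174 CPM in Ctrl 1 to 4 and 547, 562, 396 and 527 CPM in Srsf10-kd 1 to 4, with a log2 fold change of -0.72 (SE 0.21, edgeR adjusted p = 0.136), or -0.43 after correction for transcript length. *Slc25a44*, the mitochondrial carrier of branched chain amino acids, was at 52.1 to 60.98 CPM and 37.96 to 47.3 CPM. *Slc7a1* was higher as labelled but scarce, at 0.697 to 1.11 CPM against 0.477 to 0.687 CPM. Of these 4 carriers, DESeq2 called *Slc7a2* (adjusted p = 0.0347) and *Slc25a44* (adjusted p = 0.0305). Limma-voom called *Slc25a44* alone (adjusted p = 0.0235).

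Among 15 tested regulators of these pathways, *Ppara*, a nuclear receptor that governs fatty acid oxidation and also represses parts of amino acid catabolism, was the 1 gene called. It was at 177, 208, 168 and 234 CPM in Ctrl 1 to 4 and at 88.4, 84.6, 77.8 and 82.3 CPM in Srsf10-kd 1 to 4. The groups were far apart, with a log2 fold change of -1.24 (SE 0.13, edgeR adjusted p = 0.0166); without Ctrl 2 the adjusted p was 0.106, and without Srsf10-kd 1, 2 or 4 it was 0.0823, 0.0537 and 0.0969. *Cebpb*, a transcription factor of the gluconeogenic and acute phase programs, was at 89.02 to 153 CPM in *Ctrl* and 166 to 246 CPM in *Srsf10-kd* (edgeR adjusted p = 0.119, DESeq2 0.0156). *Sirt5*, the mitochondrial desuccinylase that acts on Cps1 protein, was at 11.02 to 12.9 CPM and 13.6 to 17.6 CPM. The groups did not overlap for these 3 of the 15 regulators (20%, against 14.3% of all genes).

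In the marker and clock lists, groups did not overlap for *Clock*, a core clock activator (57.1 to 63.7 CPM in *Ctrl*, 39.3 to 49.3 CPM in *Srsf10-kd*), and for 2 hepatocyte secretory genes that ran opposite ways, *Apob* (7251 to 9349.6 and 2658 to 5229 CPM) and transferrin, *Trf* (128 to 171 and 189 to 552 CPM). The cholangiocyte keratin *Krt19* (5.17 to 8.79 and 9.49 to 11.6 CPM), *Spp1* of the same list (17.8 to 26.6 and 27.1 to 44.7 CPM) and the endothelial *Lyve1* (13.6 to 21.9 and 22.7 to 34.2 CPM) were also apart, as were *Slc1a2*, which stands in the pericentral list too, and the pancreatic *Ctrb1* and *Cela2a*. EdgeR called none of these 9 genes, the lowest adjusted p being 0.113, for *Slc1a2*. DESeq2 and limma-voom, which called 5.75% and 11.7% of all genes, did call some. They gave adjusted p-values of 0.00439 and 0.0145 for *Clock*, 0.00293 and 0.00953 for *Apob*, and 0.0206 and 0.04 for *Trf*. With the length correction, the log2 fold change went from -0.44 to -0.13 for *Clock*, from -0.93 to -0.56 for *Apob* and from 1.07 to 1.04 for *Trf*. Apart were 1 of 12 clock genes, 2 of 8 hepatocyte, 2 of 6 cholangiocyte, 1 of 6 endothelial and 1 of 8 pericentral markers. The 2 tested kidney and pancreas markers were apart as well. None was in the macrophage, stellate cell, T, B and NK cell or periportal lists. Of all genes tested, 14.3% were apart.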

How the data were processed

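Poly(A) RNA of 8 mouse livers had been sequenced from both ends by the authors with directional libraries, aligned to GRCm38 (mm10) with STAR 2.7.7a and counted per gene. The deposited values were raw counts per gene, without normalization, and the annotation release, strand column and read filters are not given in the sources used here. Groups were read from the sample labels. Identifiers were matched to GENCODE M21 on GRCm38 (45143 of 45706).

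Counts were analysed in R 4.3.3 with edgeR 4.0.16 (TMM, filterByExpr, quasi-likelihood test on condition, two-sided, Benjamini-Hochberg over 15491 genes, threshold 0.05), and the code was tested on simulated data. The study's DESeq2 (1.42.0) and limma-voom with quality weights (limma 3.58.1) were alternatives, as were other scalings and filters, corrections for transcript length and GC content (lowess, span 0.5), the replicate number as a block, and each liver left out. CPM follows TMM scaling, log2 CPM used a prior count of 2, and RPKM divides CPM by the longest coding transcript. Exact permutation tests were two-sided over 70 assignments, with a smallest p of 0.0286. Totals of 50456404 to 59697241 counts gave the members 214 to 377661 counts per liver, so that differences between libraries rather than counting limit the precision. The source of these differences was not tested. Shared sequence was searched in 75-base stretches. Markers and state genes were summed CPM over listed genes.

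Members given liver by liver were those with an unadjusted p under 0.05, groups that do not overlap, or an adjusted p under 0.05 in DESeq2 or limma-voom, plus *Cps1*, *Otc*, *Ass1*, *Asl*, *Arg1*, *Nags*, *Gls2*, *Tat*, *Hpd*, *Tdo2*, *Hal*, *Bckdha*, *Prodh*, *Agxt* and *Cth*. The 5 highest and 3 lowest by RPKM were named. Genes of other lists were named where groups did not overlap or edgeR called them, plus *Ppara* and *Srsf10*. *Got1*, *Uroc1* and the further enzymes that DESeq2 or limma-voom called were added after their values were seen. So were the 1.5 times criterion for single livers and the promoters shown. Members and lists were chosen with earlier results of these data known.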

Additional observations from a re-analysis of the deposited data

Results flagged for a closer look

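Single livers far from the other 3 of their group were sought with Dixon's test at the 95% level in the 2 groups of each of the 49 members. Of these 98 groups, 10 stood out, where chance gives about 5. With 2 pancreatic genes included it was 12 of 100. These 2 were examined only in *Srsf10-kd*, the group that held their high liver, so they add nothing to the result for the members. Over all genes tested the share was 8.13% of 30982 groups, against 10.2% for the members. In Ctrl 4 the members that stood out were *Cps1* at 6627 CPM (others 2286 to 2683), *Ass1* at 2026 CPM (others 1162 to 1278), *Got1* at 332 CPM (others 84.4 to 105), *Kynu* at 222 CPM (others 138 to 147) and *Cth* at 1107 CPM (others 368 to 484). Both urea cycle genes, the cytosolic aspartate transaminase and the cysteine and tryptophan enzymes were on the high side. In Srsf10-kd 2 they were *Ass1* at 1580 CPM, *Gls2* at 317 CPM, *Hal* at 466 CPM and *Uroc1* at 481 CPM, again all high, and in the same liver the pancreatic elastase *Cela2a* was at 36.8 CPM and the chymotrypsinogen *Ctrb1* at 80.8 CPM. The remaining one was *Amdhd1*, low in Ctrl 1 at 162 CPM. No explanation for these livers was tested.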

How the results depend on the processing

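The count of 0 members with an adjusted p under 0.05 was the same under all 17 alternatives, although the count over all genes ran from 11 to 890 in DESeq2, 1814 in limma-voom, 46 without a filter, 59 with the replicate block, 8 with the length correction and 0 to 544 with a liver left out. Members with an unadjusted p under 0.05 went from 5 to 2 in limma-voom, 3 with the length correction and 1 to 6 with a liver left out. Of all genes, such a p was held by 31.4% in limma-voom, 14.9% with the length correction and 13.8% to 28% with a liver left out. Members whose groups do not overlap went from 1 to 0 with the length correction and 1 to 6 with a liver left out (6, or 12.2%, without Srsf10-kd 2, where 21.4% of all genes were apart; over the 8 livers left out that share was 16.1% to 31.9%). The further enzymes called went from 0 to 3 in DESeq2 and 6 in limma-voom. Of the 49 members, 15 turned direction in limma-voom, 5 with the length correction, 2 with the replicate block, 1 with the GC correction and 0 in DESeq2, and 25 had a range across 0 with a liver left out. Among the 19 members given liver by liver under the naming rule, those that turned in limma-voom were *Arg1* (log2 fold change 0.035), *Hal* (-0.083), *Agxt* (0.078) and *Cth* (0.115), and with the replicate block *Hal* (-0.010). With each liver left out, the ranges across 0 among these 19 were those of *Ass1* (-0.28 to 0.066), *Asl* (-0.49 to 0.016), *Arg1* (-0.18 to 0.024), *Gls2* (-0.086 to 0.13), *Tat* (-0.37 to 0.12), *Hal* (-0.25 to 0.13), *Agxt* (-0.48 to 0.19), *Cth* (-0.36 to 0.32), *Prodh* (-0.26 to 0.095) and *Bckdha* (-0.057 to 0.026). Of the other 30, *Got1* (-0.56 to 0.33), *Hgd* (-0.29 to 0.17) and *Sds* (-0.056 to 0.44) are examples that also turned in limma-voom. The cause was not tested. No source says that a replicate number marks a shared animal or batch. Same-numbered livers correlated at -0.176, 0.213, 0.265 and 0.217, so that Srsf10-kd 2, 3 and 4 correlated best with their own number and Srsf10-kd 1 with Ctrl 4 (0.383). The numbers were not taken as pairs. The block left 0 members called and 4 with an unadjusted p under 0.05 (8.16%, against 28% of all genes). Depth was no limit, as each member had at least 214 counts in every liver.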
